A study of Schizosaccharomyces pombe with 21 samples.

Results

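The core autophagy machinery of fission yeast (*Schizosaccharomyces pombe*) was followed through 10 genes out of 6988 listed, of which 5107 are annotated as protein-coding. The genes were picked by systematic identifier for their known roles, with earlier results of these data known. The Atg1 kinase complex that starts autophagy was represented by *atg1* (SPCC63.08c), *atg13* (SPAC4F10.07c) and *atg101* (SPAC25H1.03). The ubiquitin-like conjugation systems were represented by *atg8* (SPBP8B7.24c), *atg5* (SPBC4B4.10c), *atg12* (SPAC1783.06c), *atg3* (SPBC3B9.06c) and *atg7* (SPBC6B1.05c). Between these stand *atg9* (SPBC15D4.07c) and *atg18a* (SPAC589.07c), which are described apart. All 10 were found, and all 10 had a mean normalised count of at least 100 at every time, so none was lost to the filter on low counts.

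Autophagy encloses cytoplasm in a double membrane and delivers it to the vacuole, where it is broken down and its building blocks are reused. The Atg1 kinase, held together with Atg13 and Atg101, responds to nutrient signals and starts the membrane, to which vesicles carrying Atg9 contribute. The membrane then grows as PI3P (phosphatidylinositol 3-phosphate) recruits Atg18 proteins and as Atg8, a ubiquitin-like protein, is joined to the membrane lipid phosphatidylethanolamine. That last reaction needs the activating enzyme Atg7, the conjugating enzyme Atg3 and a second conjugate, Atg12 joined to Atg5.

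Poly(A)+ RNA was sequenced from 21 samples of 1 haploid strain, *ecl123*Δ (ASY136), in which the paralogous genes *ecl1*, *ecl2* and *ecl3* had been replaced by drug resistance markers. The samples formed 7 groups of 3 biological replicates, and whether samples of different times came from the same cultures was not stated in the labels. The 0 h group was log-phase culture in YES, a rich yeast extract medium. The other 6 groups were moved to ePMGT(-PO4), a defined medium without phosphate, and sampled early (4, 8 or 12 h) or late (24, 36 or 48 h). Every group carried the same deletions, and a change of medium and a loss of phosphate coincide in every comparison with 0 h, so the effect of the deletions was not addressed by these samples and the effects of medium and phosphate cannot be told apart in them.

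The values are the authors' mean of 3 normalised counts (reads per gene divided by a size factor of the library) at each time. For means of 100 to 1000 the whole reads of the 3 libraries behind a mean could be recovered from its decimals, which gave a single solution for 94.5% of 13073 such values. The share was lower at 0 h (83.9%) and 8 h (82.3%) than at the other times (96.1% or more). For means of 500 to 1000 it was 64.4% at 0 h and 66.5% at 8 h. The recovered size factors ran from 0.804 to 1.32, and the libraries held an estimated 18007287 to 26762663 reads assigned to genes. Among recovered genes with means of 500 to 1000, the median coefficient of variation between libraries was 5.41% to 7.27% at 6 of the times and 13.1% at 24 h, where the libraries were least alike. The deleted gene *ecl3* was listed at 0 at 0 h and at no more than 3.67 later. Counts of 1472 to 4095 remained for *ecl1* and of 1934 to 3191 for *ecl2*. Whether their annotated exons extend beyond what was deleted was not tested, so these counts do not check the genotype.

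All 10 core autophagy mRNAs had their lowest mean at 0 h, and most were called higher in starved cells. Called higher means at least 2-fold above 0 h with a mean count of at least 100. At 4 h 5 of the 10 members were called higher, against 11.8% of the 4888 protein-coding genes compared. The count was 9 of 10 at 8 h (background 15.2%) and 9 of 10 at 12 h (15.9%). It was 8 of 10 at 24 h (17.3%), at 36 h (17.5%) and at 48 h (17.3%). No member was called lower at any time. Measured relative to the median protein-coding gene of each time, *atg7* and *atg9* also passed 2-fold at 4 h. This made the count 7, against 612 of the 4888 protein-coding genes, and no later call of a member changed. These calls rest on the means alone and carry no test, and all 6 comparisons share the same 0 h libraries.

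**Figure D1:**
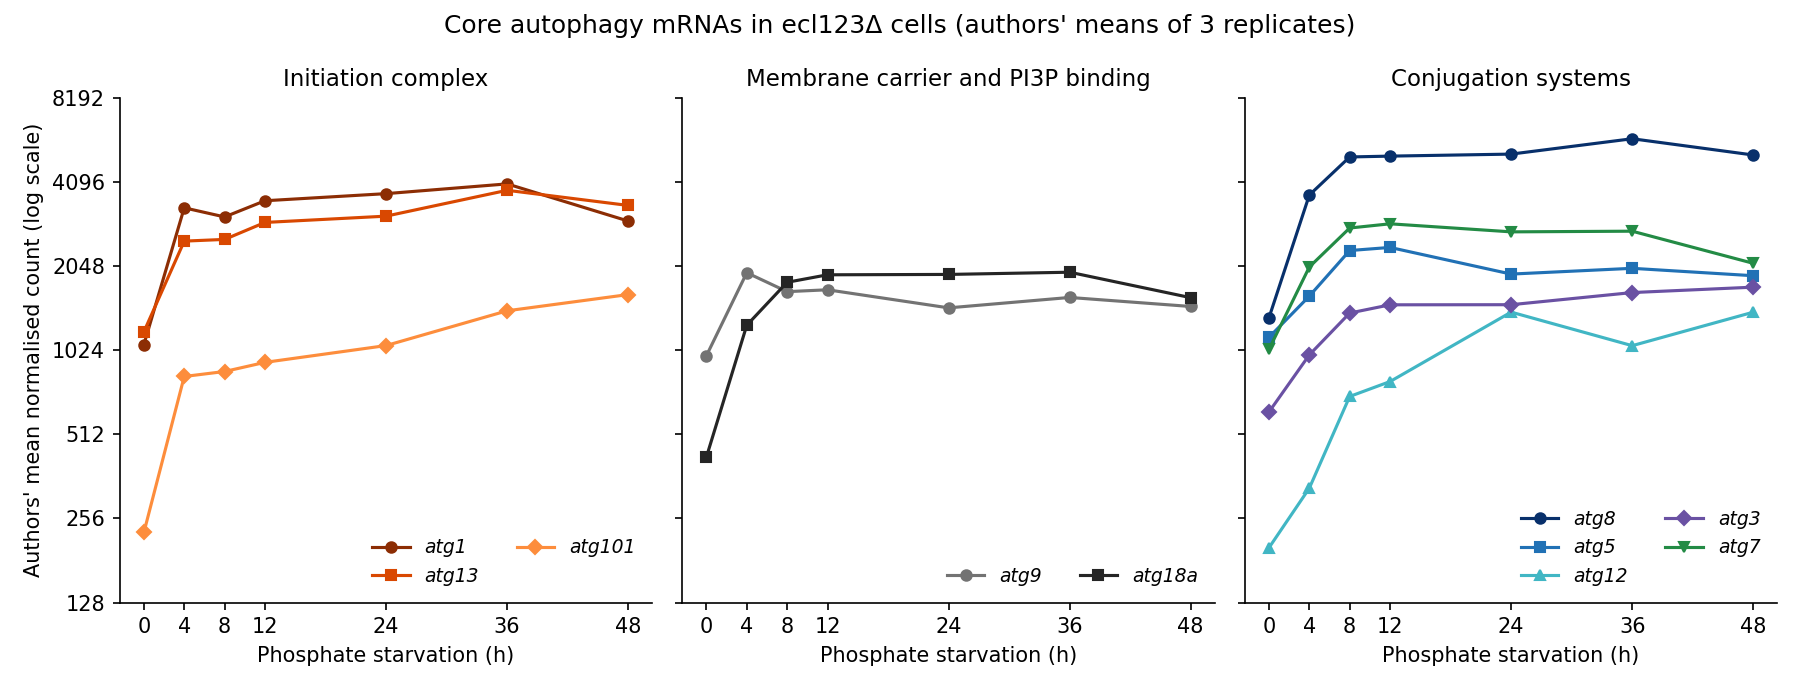
Mean normalised count (log scale, authors' mean of 3 replicates) against hours of phosphate starvation for the 3 genes of the initiation complex, for *atg9* and *atg18a*, and for the 5 conjugation genes. All 10 lines start at their lowest point, and those of *atg101* (from 228) and *atg12* (from 201) climb the most.

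The median protein-coding gene itself lay slightly below 0 h on this scale, at a log2 change of -0.05 at 4 h and of -0.17 to -0.24 from 8 to 48 h. Log2 changes below were computed as log2 of the mean plus 1 at the later time over the mean plus 1 at the earlier time. They are not centred on those medians, which are the values to read them against. Counts were not divided by gene length, so levels are compared within a gene over time and not between genes. Because counts are relative to the library, a share of all poly(A)+ RNA and an amount of mRNA per cell cannot be told apart.

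The 3 mRNAs of the initiation complex were all called higher at 4 h and at every later time, and by 4 h they had reached 64.1% to 85.1% of their largest log2 change. *atg1*, the protein kinase of the complex, had mean counts of 1073 at 0 h, 3314 at 4 h, 3074 at 8 h, 3512 at 12 h, 3724 at 24 h, 4036 at 36 h and 2971 at 48 h. It was 3.09-fold above 0 h at 4 h and 3.76-fold at its highest mean at 36 h.

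*atg13*, which encodes the regulatory subunit that links the kinase to its partners, had mean counts of 1193 at 0 h, 2518 at 4 h, 2554 at 8 h, 2937 at 12 h, 3094 at 24 h, 3828 at 36 h and 3379 at 48 h. It was 2.11-fold above 0 h at 4 h, the smallest early change of the 3, and 3.21-fold at 36 h.

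*atg101*, which encodes a binding partner that stabilises Atg13, started low. Its mean counts were 228 at 0 h, 825 at 4 h, 860 at 8 h, 927 at 12 h, 1065 at 24 h, 1418 at 36 h and 1621 at 48 h. It was 3.62-fold above 0 h at 4 h and 7.10-fold at 48 h, the largest fold change of any member at any time. It was the initiation mRNA with a higher mean at each later time than at the one before.

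The reads of *atg101* could be resolved to single libraries at 3 times. At 0 h the normalised counts of its 3 libraries were 210.1, 253.0 and 221.5. At 4 h they were 814.0, 865.6 and 796.0, and the 12 h libraries gave 904.6, 965.2 and 911.3. The lowest library at 4 h was more than 3 times as high as the highest at 0 h, whereas the 4 h and 12 h libraries lay close together without overlapping. In a limma fit over the genes recovered at both times, *atg101* was higher at 4 h than at 0 h by a log2 change of 1.85 (SE 0.10, adjusted p = 1.3e-19). The background for limma is the share of genes higher at an adjusted p of at most 0.05, by any size of change. It was 47.3% of 1088 genes here, of which 155 genes were also at least 2-fold higher. *atg101* was higher at 12 h than at 0 h by 2.02 (SE 0.10, adjusted p = 5.5e-12), with a background of 59.2% of 998 genes. From 4 h to 12 h it was higher by 0.17 (SE 0.07, adjusted p = 0.038), with a background of 49.7% of 1407 genes.

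*atg9* and *atg18a* went separate ways. *atg9*, which encodes the transmembrane protein of the vesicles that seed the membrane, had mean counts of 979 at 0 h, 1940 at 4 h, 1660 at 8 h, 1686 at 12 h, 1453 at 24 h, 1583 at 36 h and 1469 at 48 h. Its highest mean was at 4 h, 1.98-fold above 0 h and just under the 2-fold threshold, and it was never called higher. At 24 to 48 h its log2 change of 0.57 to 0.69 was close to the upper quartile of protein-coding genes (0.60 to 0.61).

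*atg18a*, which encodes a PI3P-binding protein, had mean counts of 425 at 0 h, 1259 at 4 h, 1794 at 8 h, 1908 at 12 h, 1914 at 24 h, 1949 at 36 h and 1580 at 48 h. It was 2.96-fold above 0 h at 4 h and 4.59-fold at 36 h, and it was called higher at all 6 times. The 3 libraries at 0 h stood at 404.3, 454.6 and 415.9 (425 ± 26.3, SD, n = 3), far below every later mean.

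Of the 5 conjugation mRNAs 1 was called higher at 4 h and all 5 were at 8 h, and by 4 h they had reached 25.3% to 68.5% of their largest log2 change. The 1 called at 4 h was *atg8*, which encodes the ubiquitin-like protein that coats the growing membrane. Its mean counts were 1338 at 0 h, 3681 at 4 h, 5039 at 8 h, 5074 at 12 h, 5159 at 24 h, 5856 at 36 h and 5120 at 48 h. It was 2.75-fold above 0 h at 4 h and 4.38-fold at 36 h.

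*atg7*, the activating enzyme that serves both ubiquitin-like proteins, had mean counts of 1032 at 0 h, 2035 at 4 h, 2805 at 8 h, 2904 at 12 h, 2718 at 24 h, 2733 at 36 h and 2097 at 48 h. At 4 h it was 1.97-fold above 0 h, just under the threshold. It was highest at 12 h (2.81-fold) and 2.03-fold above 0 h at 48 h.

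*atg3*, the conjugating enzyme that hands Atg8 to the lipid, had mean counts of 616 at 0 h, 986 at 4 h, 1392 at 8 h, 1490 at 12 h, 1491 at 24 h, 1648 at 36 h and 1723 at 48 h. It was 1.60-fold above 0 h at 4 h and 2.80-fold at 48 h. The 3 libraries stood at 632.3, 618.4 and 596.9 at 0 h and at 1037, 964.9 and 955.6 at 4 h. These libraries did not overlap, and limma gave a log2 change of 0.68 (SE 0.08, adjusted p = 2.6e-10). The background was the same 47.3% of genes higher by any size of change.

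*atg5*, the acceptor to which Atg12 is joined, changed least of the conjugation mRNAs. Its mean counts were 1139 at 0 h, 1600 at 4 h, 2330 at 8 h, 2390 at 12 h, 1919 at 24 h, 2013 at 36 h and 1893 at 48 h. It was 2.05-fold above 0 h at 8 h and 2.1-fold at 12 h, and 1.66-fold to 1.77-fold from 24 to 48 h, below the threshold.

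*atg12*, the ubiquitin-like partner of Atg5, had the largest fold change of the conjugation mRNAs. Its mean counts were 201 at 0 h, 329 at 4 h, 700 at 8 h, 791 at 12 h, 1403 at 24 h, 1064 at 36 h and 1402 at 48 h. It was 1.63-fold above 0 h at 4 h, 3.48-fold at 8 h and 6.97-fold at 24 and 48 h. Its log2 change at 4 h was 25.3% of its largest, the lowest such share among the 10 genes.

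The libraries of *atg12* could be resolved at the first 4 times. At 0 h its 3 normalised counts were 181.6, 180.6 and 241.3, and at 4 h they were 306.2, 305.6 and 374.3. The 8 h libraries gave 800.5, 648.0 and 651.1, and the 12 h libraries 687.6, 821.0 and 865.5. The 0 h, 4 h and 8 h libraries formed 3 separate levels, while those of 8 h and 12 h overlapped. By limma the mRNA was higher at 4 h than at 0 h by 0.71 (SE 0.14, adjusted p = 1.8e-05).

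From 4 h to 8 h *atg12* was higher by 1.09 (SE 0.11, adjusted p = 3.0e-08), where 51.9% of 1306 genes were higher by any size of change. Against 0 h the log2 change was 1.80 (SE 0.13, adjusted p = 2.4e-10) at 8 h, with a background of 57.5% of 916 genes, and 1.98 (SE 0.13, adjusted p = 1.0e-10) at 12 h. The step from 8 h to 12 h was 0.18 (SE 0.11, adjusted p = 0.30) and did not pass the test, which 6.29% of 1495 genes passed in the upward direction. The limma fits covered genes with counts between 100 and 1000 at both times and were added after the data were seen.

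**Figure D2:**
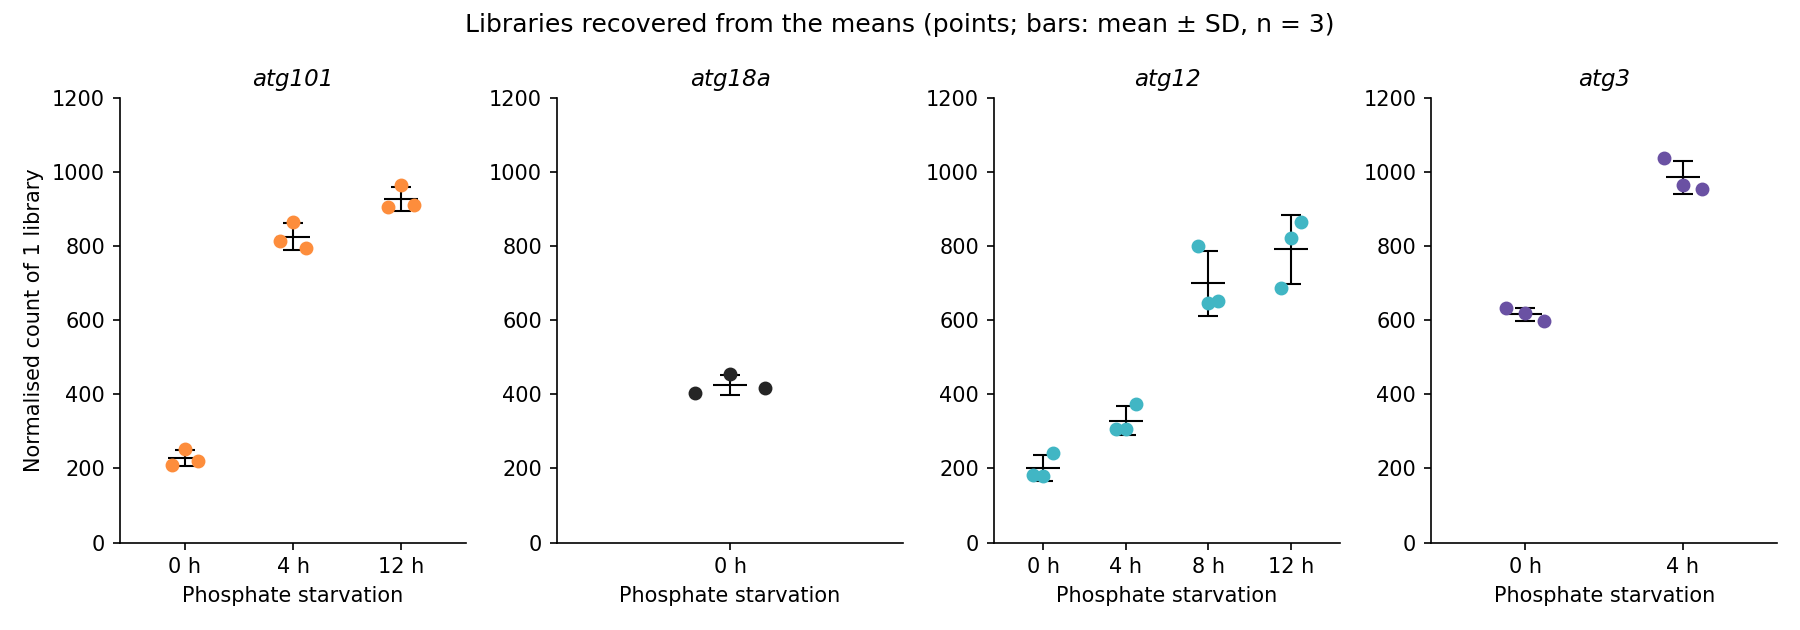
Normalised counts of single libraries (points) for the 4 members and the times at which they could be recovered, with the mean and SD of the 3 libraries. The *atg12* libraries stand at 3 separate levels at 0, 4 and 8 h, and the *atg101* libraries are already between 796.0 and 865.6 at 4 h.

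By the medians of the members chosen for them, the initiation complex and the conjugation systems stood furthest apart at 4 h. The median log2 change was 1.63 for the 3 initiation mRNAs (range 1.08 to 1.85) at this time and 0.71 for the 5 conjugation mRNAs (range 0.49 to 1.46). At 8 h the medians were 1.52 and 1.44.

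The initiation median was then 1.71 at 12 h, 1.79 at 24 h, 1.91 at 36 h and 1.5 at 48 h. Beside these the conjugation median was 1.49, 1.40, 1.42 and 1.48. From 24 h on 4 of the 5 conjugation mRNAs were called higher, all but *atg5*. The ranges of the 2 groups overlapped at all 6 times. The difference of the medians, initiation minus conjugation, was 0.92 at 4 h, 0.08 at 8 h, 0.22 at 12 h, 0.40 at 24 h, 0.49 at 36 h and 0.02 at 48 h. Without *atg12* the difference was 0.21 at 8 h, 0.33 at 12 h and 0.25 at 48 h, larger by over 1.5 times. These differences describe 8 genes and carry no test, since genes of a group are not replicates.

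**Figure D3:**
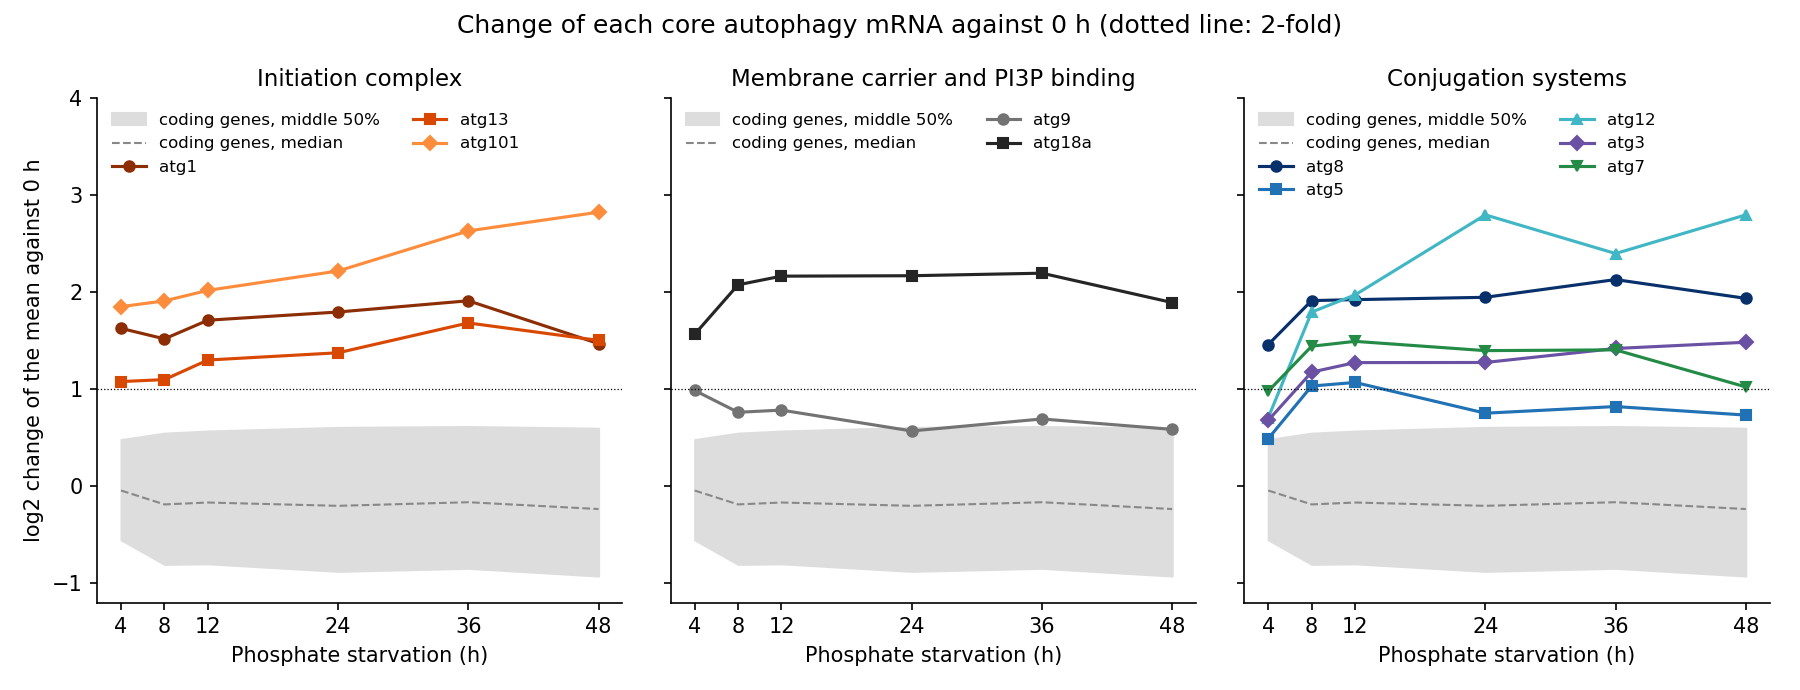
Log2 change of the mean against 0 h at each of the 6 later times, for the 3 groups of members, with the median and the middle 50% of the protein-coding genes compared in grey and a dotted line at 2-fold. At 4 h the 3 initiation genes are above the dotted line and *atg8* is the single conjugation gene above it, whereas at 8 h all 8 are above it.

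The second step, from 4 h to 8 h, separated the groups without overlap, in a comparison that was not planned. Over each later step the ranges of the groups overlapped. The differences of the medians (initiation minus conjugation) were then 0.14, 0.08, 0.24 and -0.09 in order of time. For the initiation mRNAs the log2 change from 4 h to 8 h was -0.11 for *atg1*, 0.02 for *atg13* and 0.06 for *atg101*. For the conjugation mRNAs it was 0.45 for *atg8*, 0.46 for *atg7*, 0.50 for *atg3*, 0.54 for *atg5* and 1.09 for *atg12*. *atg18a*, at 0.51, lay with the conjugation mRNAs, and *atg9* lay at -0.22.

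Over the same step the median protein-coding gene stood at -0.13, with a middle 50% from -0.42 to 0.22, and the conjugation mRNAs lay above 86.4% to 97.4% of these genes and the initiation mRNAs above 51.5% to 64.7%. Relative to that median the step of *atg1* turned from -0.11 to 0.02. A 2-fold step was shown by *atg12* alone among the 10 members, against 3.28% of 4911 protein-coding genes. Without the highest of its 8 h libraries (800.5) the step of *atg12* was 0.98, just under 2-fold. Genes with recovered libraries and counts of 500 to 1000 had a median SE of 0.08 for this log2 difference and a 95th percentile of 0.14, which the steps of all 5 conjugation mRNAs exceeded more than 3 times. That yardstick comes from other genes, since 9 of the 10 members could not be resolved to libraries at both times.

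**Figure D4:**
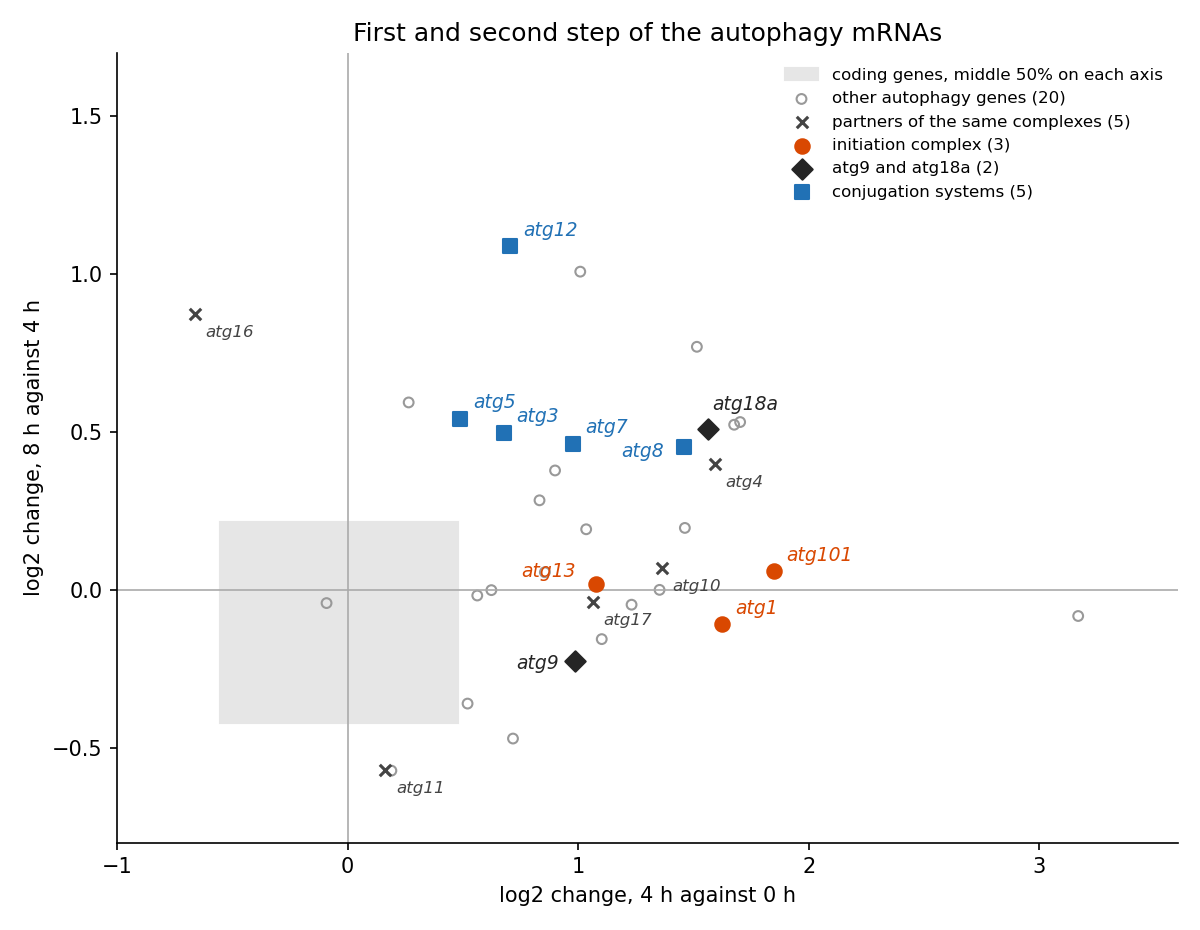
Log2 change from 0 h to 4 h (x axis) and from 4 h to 8 h (y axis) for the 10 members, for 5 partners of the same complexes and for 20 other autophagy genes, with a grey box for the middle 50% of protein-coding genes on each axis. The 3 initiation genes lie near 0 on the y axis and the 5 conjugation genes at 0.45 or more, with *atg18a* beside *atg8*.

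Members of different groups could be set against each other within libraries, because *atg101* and *atg12* were both resolved at 0, 4 and 12 h. The log2 ratio of *atg101* to *atg12* was 0.21, 0.48 and -0.12 in the 3 libraries of 0 h. In those of 4 h it was 1.41, 1.5 and 1.09, and in those of 12 h it was 0.40, 0.23 and 0.07. Every 4 h library lay above every library of the other times. The ratio was higher at 4 h than at 0 h by 1.14 (SE 0.22), and it was lower at 12 h than at 4 h, with a difference of -1.10 (SE 0.16). The ratio of *atg101* to *atg3* was higher at 4 h than at 0 h by 1.18 (SE 0.10). Each of these 3 ratio comparisons had an exact 2-sided permutation p of 0.10 (adjusted over the 3, 0.10), the smallest that 3 libraries against 3 can give. The ratios do not stand for the groups. At 4 h *atg101* had the largest log2 change of the initiation mRNAs (1.85). *atg12* (0.71) and *atg3* (0.68) were then below *atg7* (0.98) and *atg8* (1.46), and *atg8* stood above *atg13* (1.08).

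Later steps were smaller for most members. From 8 h to 12 h all 10 log2 changes lay between 0.01 and 0.20. From 12 h to 24 h the largest was that of *atg12* at 0.83, above 97.8% of protein-coding genes, while *atg5* stood at -0.32. From 24 h to 36 h *atg101* stood at 0.41 and *atg13* at 0.31, and *atg12* at -0.40. Both steps involve the 24 h libraries, for which the median SE of a log2 difference was 0.13 among recovered genes and the 95th percentile 0.28.

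From 36 h to 48 h the members diverged again. The log2 change was -0.44 for *atg1*, -0.38 for *atg7*, -0.30 for *atg18a*, -0.19 for *atg8*, -0.18 for *atg13*, -0.11 for *atg9* and -0.09 for *atg5*. It was 0.06 for *atg3*, 0.19 for *atg101* and 0.40 for *atg12*. The value of *atg1* lay above 4.19% and that of *atg7* above 6.89% of protein-coding genes, whose median was -0.07, and that of *atg12* lay above 96.0%. The median SE of this difference among recovered genes was 0.08 and the 95th percentile 0.16. None of these steps reached 2-fold and none could be tested.

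The order of times also differed between members. The highest mean fell at 4 h for *atg9*, at 12 h for *atg5* and *atg7*, at 24 h for *atg12*, at 36 h for *atg1*, *atg13*, *atg18a* and *atg8*, and at 48 h for *atg101* and *atg3*. For *atg12* the means of 24 h and 48 h (1403 and 1402) were as good as equal. For *atg8* the means from 8 h to 24 h ran from 5039 to 5159, a narrower band than the median spread between libraries.

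Whole profiles did not sort the members by role. By the Euclidean distance over the 6 log2 changes against 0 h, *atg8* and *atg18a* were each other's nearest member (0.390), and so were *atg13* and *atg3* (0.496). *atg5* was nearest to *atg9* (0.687) and *atg12* to *atg101* (1.31), which are also pairs of different groups. *atg1* was nearest to *atg8* (0.719) and *atg101* to *atg18a* (1.09), again across groups. Only *atg7* had its nearest member, *atg3* (0.661), within its own group. The farthest pair was *atg9* and *atg12* (3.91).

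Among 4929 other protein-coding genes with a mean of at least 100 at some time, the 3 nearest to the median profile of the initiation complex were *xks1*, SPBC530.11c and SPAC25G10.01, at distances of 0.320 to 0.353. Their log2 changes at 4 h and 8 h were 1.36 and 1.58 for *xks1*, 1.81 and 1.77 for SPBC530.11c, and 1.75 and 1.65 for SPAC25G10.01. The 3 nearest to the median profile of the conjugation systems were *bdf2*, which encodes a bromodomain protein, *smn1*, which encodes a protein of spliceosome assembly, and *vps55*, which encodes an endosomal sorting protein, at distances of 0.159 to 0.244. *bdf2* stood at 0.68 at 4 h and 1.35 at 8 h, *smn1* at 0.79 and 1.37, and *vps55* at 0.87 and 1.61. All 6 distances are over the same 6 times.

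The other autophagy genes were read from a list of 27 symbols, of which 25 could be matched by name. Of these 25, 13 were called higher at 4 h (against 11.8% of protein-coding genes), 14 at 8 h (15.2%), 14 at 12 h (15.9%), 13 at 24 h (17.3%), 13 at 36 h (17.5%) and 12 at 48 h (17.3%), and none was called lower. Their median log2 change ran from 0.97 to 1.12 over the 6 times. The list was drawn up with earlier results of these data known.

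Partners of the members' own complexes repeated part of the pattern. *atg17*, a scaffold of the initiation complex, had a log2 change of 1.06 at 4 h and 1.02 at 8 h, and its step between them was -0.04. *atg11*, the other scaffold, stood at 0.16 at 4 h and -0.41 at 8 h, with a step of -0.57.

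*atg4*, the protease that trims and recycles Atg8, stood at 1.59 at 4 h and 1.99 at 8 h, with a step of 0.40. *atg10*, the conjugating enzyme of Atg12, was already at 1.36 at 4 h and at 1.43 at 8 h, with a step of 0.07, unlike *atg12* itself. *atg16*, which binds the Atg12-Atg5 conjugate, stood at -0.66 at 4 h, 0.21 at 8 h and 0.92 at 48 h, with a step of 0.87, and was never called higher. With these 3 genes the conjugation steps ran from 0.07 to 1.09 and no longer stood clear of the initiation mRNAs, whose highest step was 0.06, by more than the spread between libraries. At 4 h the partners did not repeat the order of the group medians. *atg4* (1.59) and *atg10* (1.36) stood above *atg17* (1.06) and *atg11* (0.16), while *atg16* stood lowest. The group medians were not recomputed with these partners.

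Among 5 genes of the PI3P-forming lipid kinase complex, *atg6* stood at 1.19, *atg14* at 1.12 and the catalytic subunit gene *vps34* at 0.16 at 8 h. At that time 2 of these 5 were called higher, against 15.2% of protein-coding genes. The lipid transfer gene *atg2*, whose product works with Atg18, had the lowest value of the list at 48 h, -0.46. The highest was that of *atg43*, which encodes the mitophagy receptor, with mean counts of 1707 at 0 h, 5557 at 4 h, 8033 at 8 h, 10960 at 12 h, 14806 at 24 h, 20548 at 36 h and 21072 at 48 h and a log2 change of 3.63 at 48 h. The mean of *atg43* was higher at each time than at the one before. *isp6*, which encodes a vacuolar serine protease, had its largest change at 4 h (3.17).

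**Figure D5:**
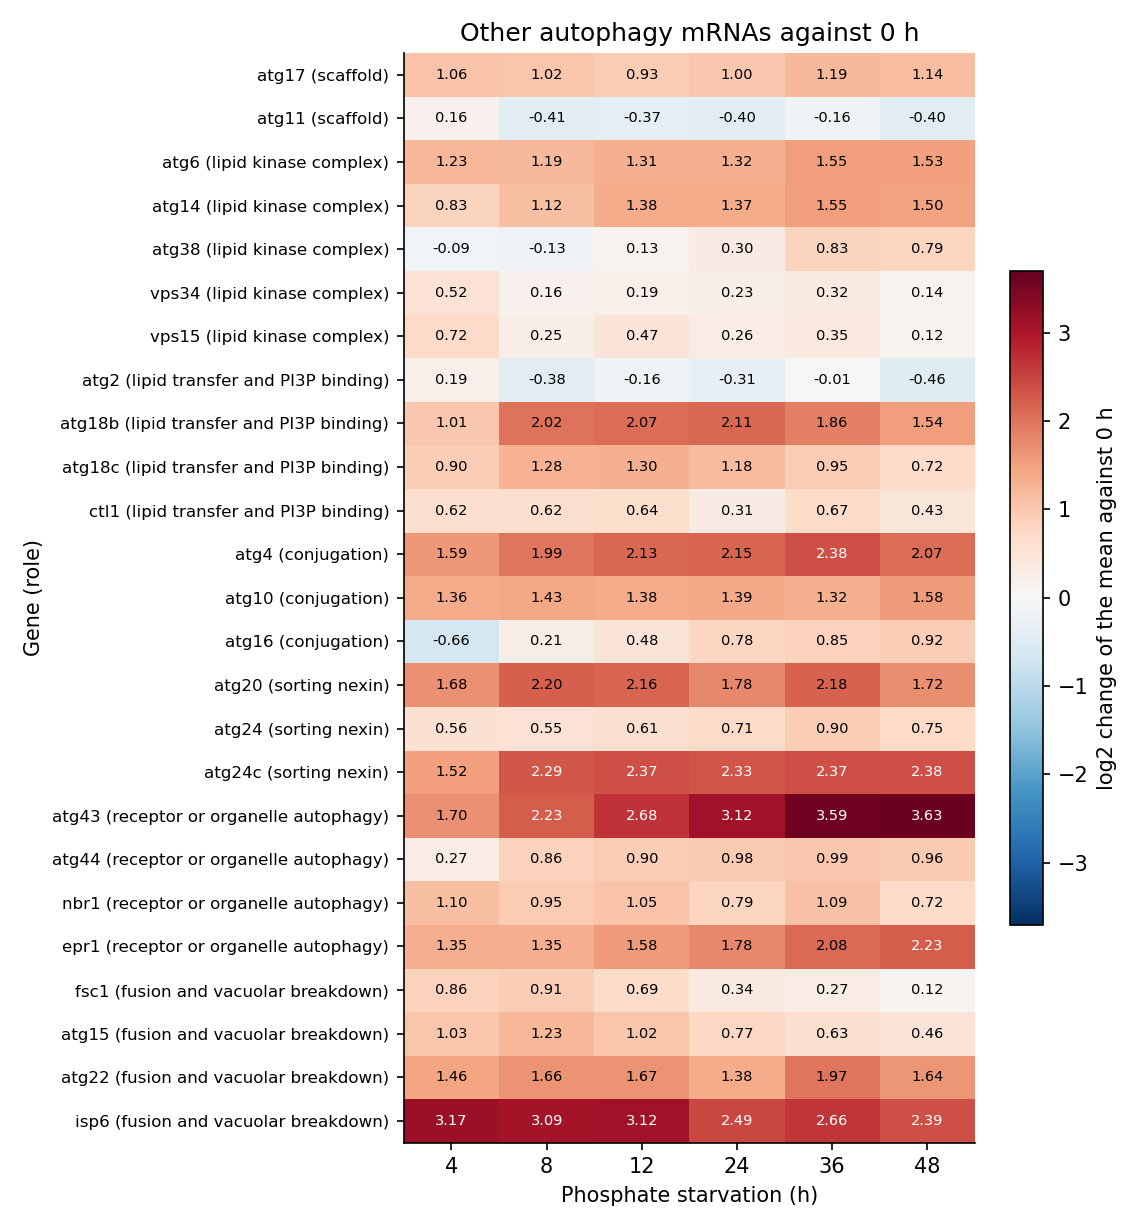
Log2 change of the mean against 0 h for the 25 matched autophagy genes outside the core set (rows, with their role) at each of the 6 later times (columns), in a colour scale from blue (lower) to red (higher). *atg43* (3.63 at 48 h) and *isp6* (3.17 at 4 h) are the darkest, and *atg11* and *atg2* are pale or blue from 8 h on.

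All 10 members share genomic sequence with other genes in the RefSeq annotation. An opposite-strand gene overlaps 9 of the 10 members, all but *atg9*, which overlaps the same-strand SPBC15D4.08c (mean counts of 59.2 to 118 over the 7 times). The library kit marks strand, but which strand setting the reads were counted with was not stated. Among 590 listed genes that lie wholly inside a gene of the opposite strand, 517 had a mean count of at least 10 at 0 h. Over all 6988 listed genes and the 7 times together, 44063 values were at least 10. The share of all listed genes at 0 h was not computed, and the strand setting was not tested.

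*atg101* lies wholly inside the antisense long noncoding RNA SPNCRNA.833, whose mean counts were 492 at 0 h, 336 at 4 h, 1054 at 8 h, 1482 at 12 h, 2515 at 24 h, 3325 at 36 h and 4125 at 48 h. The antisense RNA was lower than at 0 h by 0.55 on the log2 scale at 4 h, when *atg101* was 1.85 higher, and over the step from 4 h to 8 h it stood at 1.64 and *atg101* at 0.06. From 8 h on both had higher means at each later time, and how far reads of one enter the count of the other was not tested. For *atg12* the partly overlapping *hrp1* stood at -1.47 and SPNCRNA.804 at -0.32 at 8 h, when *atg12* was at 1.79. For *atg7* the overlapping *mde4* stood at -1.16 at 8 h, and for *atg18a* the overlapping SPNCRNA.560 stood at -1.36 at that time. *rnf10*, which overlaps *atg8*, stood at 1.14 at 4 h and 0.68 at 8 h, and over the step from 4 h to 8 h it stood at -0.47 while *atg8* stood at 0.45. Over that step *hot15*, which overlaps *atg3*, moved in the same direction as the member, at 0.38 beside 0.50. *thg1* stood at 0.34 beside -0.11 for *atg1*, *bud22* at -0.28 beside 0.02 for *atg13*, and *prp39* at -0.31 beside 0.54 for *atg5*.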

How the data were processed

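Poly(A)+ RNA was isolated from 21 *S. pombe* samples, and strand-marking libraries were sequenced in paired-end mode. The authors aligned reads with HISAT2 (2.1.0), counted them per gene with HTSeq (0.10.0) on build ASM294v2 and normalised the counts with DESeq2. The deposited values used here, a signal per gene, are the authors' means of 3 normalised counts at each time. The authors' comparison columns (fold changes, their standard errors, test statistics and p-values) and a mean over further libraries were not used. Where a mean of 100 to 1000 had a single solution in whole reads within its 10 significant digits, with every library within 2-fold of the mean, single libraries were recovered. This held for 28% of the 44063 values of at least 10, too few for a test across all genes, so calls against 0 h were made at 2-fold on log2(mean + 1) with a mean of at least 100 and no test. limma (3.58.1, R 4.3.3) with Benjamini-Hochberg adjustment was applied to log2(normalised count + 1) of genes recovered at both times, and the code for the recovery and for this fit was tested on simulated data. The simulated size factors for the recovery lay further apart than those at 0 h (0.947 to 0.962). Factors as close as these were therefore not covered. Libraries recovered from a mean carry no replicate number. Biological replicates are named as such in the labels. limma drew the spread of each gene toward that of genes of similar count (eBayes with trend). The adjusted p-values therefore rest on other genes as well as on the spread between these samples. The recovery allowed no library beyond 2-fold of its mean, which limits the spread that could be seen. Of the 6988 identifiers 6836 matched the RefSeq annotation by locus tag. It belongs to another assembly and was used for names, gene classes and overlaps. Named genes were the 10 members, 5 partners of their complexes, the highest and lowest other autophagy genes at 48 h, and the 3 genes nearest to each group's median profile. *atg6*, *atg14*, *vps34*, *isp6* and the overlapping genes were named after their values were seen. The members and lists were chosen with earlier results of these data known.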

Additional observations from a re-analysis of the deposited data

How the results depend on the processing

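A pseudocount of 10, no filter on low counts and an initiation group that also held *atg9* and *atg18a* moved no count by over 1.5 times and no median by more than the spread between libraries (0.10 on the log2 scale). At 1.5-fold the members called higher at 4 h were 9 in place of 5. The protein-coding genes called higher at 4 h were then 1053 in place of 576, of 4888 compared. They were 1186 at 8 h and 1210 at 12 h, and the genes called lower were 1173, 1615, 1622, 1745, 1672 and 1812 in order of time. Centring each time on the median protein-coding gene made the initiation medians 1.71, 1.88, 2.0, 2.08 and 1.74 and the conjugation medians 1.63, 1.66, 1.60, 1.58 and 1.72 at 8, 12, 24, 36 and 48 h, and it made the medians of the step from 4 h to 8 h 0.15 and 0.62. Centring left the differences between the groups as they were. It brought *atg7* and *atg9* past 2-fold at 4 h (7 members called, against 612 of 4888 protein-coding genes) and changed no member's call later. It raised the share of higher among all calls from 44.1% to 55.2% at 8 h, from 45.7% to 56.2% at 12 h, from 45.6% to 59.0% at 24 h, from 46.7% to 57.7% at 36 h and from 43.9% to 58.5% at 48 h. Without *atg12* the conjugation median was 0.83 at 4 h, 1.31 at 8 h, 1.38 at 12 h and 1.25 at 48 h, and the difference of the medians was 0.80, 0.21, 0.33 and 0.25 at those times.

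Leaving out 1 library at a time was possible for the recovered members only. The step of *atg12* from 4 h to 8 h then ran from 0.98 to 1.19, and without 1 of the 8 h libraries it fell just under 2-fold. The change of *atg12* at 4 h ran from 0.60 to 0.86, that of *atg101* at 4 h from 1.79 to 1.93 and that of *atg3* at 4 h from 0.64 to 0.70. It was not run for the counts and the group medians, nor were the limma fits of all 7 times or of 2 times alone for all genes. No paired analysis was possible because the deposited columns are means and carry no replicate numbers, so the replicate block was not run.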
